A study of Mus musculus with 6 samples.

Results

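A family of 37 genes was followed through the livers of mice given an overdose of acetaminophen (APAP): 33 nuclear receptors and 4 of the coregulators that act with them. They were taken by gene name from the 34745 genes of the deposited count table. The table was read for 2 APAP livers (APAP1 and APAP3) and 3 saline livers (WT1, WT2 and WT3). All mice were wild type (WT), described in the study's methods as male C57BL/6J mice aged 8 to 10 weeks, and were fasted for 12 h before an intraperitoneal injection of APAP (300 mg/kg), with livers taken 12 h later, or of saline. APAP replicate 2 was not analysed here. No column is named for saline, so the WT columns, the only others, were taken to be the saline livers, and every direction below depends on this. Nothing in the labels says whether the livers of a group came from separate experiments, so the tests measure only the spread between these livers.

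Nuclear receptors are transcription factors that are switched by small lipid-soluble ligands such as steroids, thyroid hormone, retinoids, oxysterols, fatty acids and drugs. Many of them bind DNA as a heterodimer with a retinoid X receptor (RXR), at repeats of a short element close to AGGTCA. Corepressors such as NCOR1 hold target genes silent until ligand binds, when p160 coactivators of the NCOA family replace them. In the liver this family sets drug metabolism, bile acid synthesis, fasting lipid oxidation and responses to glucocorticoid and thyroid hormone, and PXR (Nr1i2) is the receptor that the study is about.

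Of the 37 members, 33 could be tested and 1 was called, against 7.23% of all genes tested. Esrrg, the estrogen-related receptor gamma, had 9 and 2 counts with APAP against 48, 61 and 112 with saline. It was lower with APAP by 3.97 on the log2 scale as fitted, and by 3.31 to 5.32 over the alternatives (5.32 on the 2 counts of APAP3). Its call was lost when APAP3, WT1 or WT2 was left out. No member was called higher. The fitted change was below 0 for 27 of the 33 tested members, Esrrg included, where 6589 of all 13734 genes lay below 0. It was below 0 for only 15 members when the libraries were scaled by their size alone. The median log2 fold change of all genes then rose from 0.03 to 0.42. The members' median lay 0.41 below that of all genes as fitted and 0.40 below it with library size alone. Among target genes of these receptors, 7 of 18 targets of PXR and CAR were called (2 to 8 with 1 library left out), and 0 of these 2 receptors were. In the other target lists the calls went from 0 of 12 for the glucocorticoid receptor to 3 of 7 for thyroid hormone receptors. The livers of the 2 groups also differed in sex-linked transcripts, so that sex and APAP cannot be told apart for any gene given here.

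Promoter windows of the members at the centre of this account are shown first. For Esrrg (the called member), Nr1i2 and Nr1i3 (the xenobiotic receptors) and Rxra (their partner), the 250 bases before a transcription start are given 5′ to 3′, from the RefSeq promoter windows of GRCm38.p6. They lie at chr1:187997577-187997826 on the plus strand for Esrrg (1 of its 4 windows), at chr16:38294825-38295074 on the minus strand for Nr1i2, at chr1:171213720-171213969 on the plus strand for Nr1i3 and at chr2:27709042-27709291 on the plus strand for Rxra (1 of its 2 windows). The starts shown for Esrrg (187997827) and Rxra (27709292) lie inside their genes, which begin at 187608791 and 27676440. The other windows of both have starts nearer to the beginning of the gene. Capitals mark every AGGTCA half-site read on either strand, so TGACCT on the strand shown.
Esrrg: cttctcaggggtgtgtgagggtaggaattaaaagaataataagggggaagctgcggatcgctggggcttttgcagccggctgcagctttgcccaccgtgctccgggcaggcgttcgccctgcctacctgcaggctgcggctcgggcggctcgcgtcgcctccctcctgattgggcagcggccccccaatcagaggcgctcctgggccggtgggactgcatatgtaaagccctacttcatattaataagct
Nr1i2: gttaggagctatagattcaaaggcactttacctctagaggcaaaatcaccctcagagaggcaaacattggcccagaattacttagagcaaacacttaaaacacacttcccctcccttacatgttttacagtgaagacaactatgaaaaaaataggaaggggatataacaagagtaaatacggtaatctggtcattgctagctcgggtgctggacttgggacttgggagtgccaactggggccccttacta
Nr1i3: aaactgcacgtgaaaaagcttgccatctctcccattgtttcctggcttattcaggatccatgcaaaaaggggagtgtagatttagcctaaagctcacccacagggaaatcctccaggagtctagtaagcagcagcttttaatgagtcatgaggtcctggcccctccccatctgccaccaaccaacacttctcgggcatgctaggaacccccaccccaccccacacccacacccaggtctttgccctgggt
Rxra: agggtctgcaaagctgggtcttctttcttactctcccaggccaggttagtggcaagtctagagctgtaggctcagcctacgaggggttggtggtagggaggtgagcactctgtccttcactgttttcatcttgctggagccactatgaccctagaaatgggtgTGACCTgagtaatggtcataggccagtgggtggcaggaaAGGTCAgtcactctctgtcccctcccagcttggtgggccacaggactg
The Rxra window held 2 half-sites, the other Rxra window, not shown, held 0, and the windows of Esrrg, Nr1i2 and Nr1i3 held 0. Windows were read for 32 members. Of these, 7 (21.9%) held the half-site in at least 1 window, against 15.8% of all 27025 genes with a window. These 7 were Rxra, Rxrg, Rarg, Thrb, Pparg, Nr5a2 and Nr6a1. A gene with several windows has more chances to hold it. Counted by window, 8 of 51 member windows (15.69%) held it, against 14.02% of the 32851 windows of all genes. Neither difference was tested. A match is a run of letters and not a bound site. No window was read for Nr3c1, Thra, Hnf4g, Ncoa2 or Ncoa3.

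Total counts were between 13378445 and 15976339 per library, and the members together drew between 20181 and 32370 counts in each, or 0.142% to 0.208%. Counts are given below as CPM, the count scaled to a common library size, after correction by edgeR's TMM factors for library composition, and a detection floor of 3 counts amounted to 0.176 to 0.269 CPM. This floor covers counting error only. The labelled tissue was checked by its markers: the 8 hepatocyte markers (Alb and others) were all detected and summed to 70669 and 116260 CPM with APAP and to between 127960 and 172290 CPM with saline. Neutrophil markers summed to 111 and 73.1 CPM against 4.57 to 7.82 CPM, and cholangiocyte markers to 350 and 356 CPM against 47.7 to 52.1 CPM, while sinusoidal endothelial, Kupffer cell and lymphocyte sums overlapped between the groups and stellate cell sums nearly met (344 and 442 CPM against 443 to 605 CPM). No marker was at 0 in all 5 libraries. Fewer hepatocytes and less RNA per hepatocyte cannot be told apart in these bulk libraries, and the part of either in the differences below was not tested.

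The saline libraries went against the stated male sex, and the APAP libraries did not. Xist, transcribed from the inactive X chromosome of females, measured 0.764 and 1.73 CPM with APAP and 290, 914 and 882 CPM with saline. Ddx3y, on the Y chromosome, measured 79.0 and 61.7 CPM with APAP and 0, 0 and 0.0668 CPM with saline. The groups thus differed in sex-linked transcripts in all 5 libraries. For every gene in this account, members, targets and ligand enzymes alike, a difference between the sexes and a difference made by APAP cannot be told apart.

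Counts per gene length placed the members in order in the saline livers. Nr1i3 (CAR) led with a mean of 109 RPKM (CPM divided by the kilobases of exons), followed by Rxra with 77.6, Nr1i2 (PXR) with 36.0, Nr1h3 (LXR alpha) with 34.3 and Ppara with 19.6. Next to each other in this order, Nr1i3 overlapped Rxra, and Nr1i2 overlapped Nr1h3, over the 3 saline livers. At the low end, Nr4a2, Nr2f1, Hnf4g and Vdr, the vitamin D receptor, all had means under 0.2, and 30 of the 37 members reached a mean of 1 over the 5 libraries. The length used was that of all annotated exons, and the order depends on it. With principal transcripts alone, Nr1i3 (272) and Rxra (75.5) still had the highest means over the 5 libraries, but Rora (41.0), Nr1h3 (39.8) and Nr5a2 (37.1) then stood above Nr1i2 (31.6) and Ppara (24.3).

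**Figure D1:**
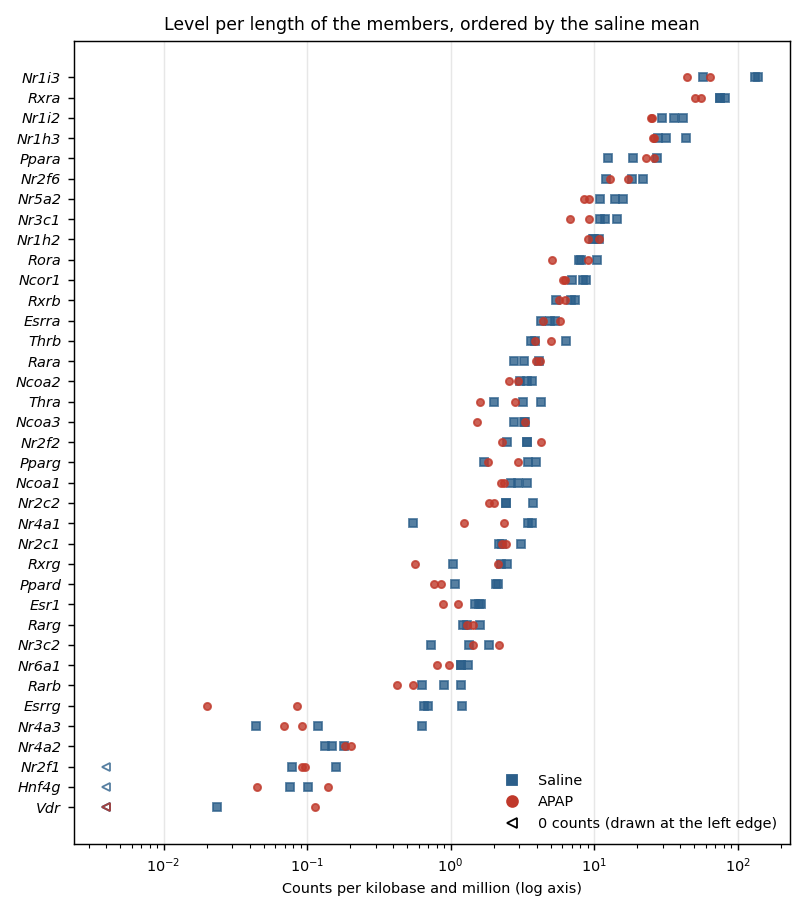
Level of each of the 37 members per gene length, in RPKM on a log axis, with 1 point per library (blue squares saline, red circles APAP, open triangles at the left edge 0 counts). Members are ordered by the saline mean, from Nr1i3 at 109 down to Vdr, and the red points of Esrrg lie well below its blue ones.

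The comparison of APAP with saline addressed whether the receptors and their cofactors were themselves altered in the injured liver. Of the 37 members, 33 had enough counts to be tested in edgeR (quasi-likelihood test, p-values adjusted by Benjamini-Hochberg over 13734 genes). The 4 others had too few. Vdr had 11 and 0 counts with APAP and 0, 0 and 2 with saline, Nr2f1 had 8 and 8 against 9, 6 and 0, Hnf4g had 2 and 6 against 0, 3 and 4, and Nr4a3 had 7 and 9 against 8, 4 and 57. These 4 genes were near the limit of detection, apart from Nr4a3 in WT3.

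At an adjusted p under 0.05, 1 of the 33 tested members was called (Esrrg, lower) and 0 were called higher. DESeq2 called 3 lower and 0 higher, where it called 1155 of all 13734 genes lower and 938 higher. At an unadjusted P under 0.05 edgeR had 6 members lower and 0 higher, where 1614 of all genes were lower and 1799 higher. Over all genes tested, edgeR called 7.23% at an adjusted p under 0.05, 3.7% higher and 3.53% lower. The members' single call is near that background. At the thresholds named by the study (a fold change of 1.5 or more with P under 0.05, without adjustment), 5 members passed, all lower: Ppard, Nr3c1, Esr1, Esrrg and Nr5a2. The background at these thresholds was 23.5% of genes, 12.3% higher and 11.2% lower. The groups did not overlap for 15 of the 33 members (45.5%), 14 lower and 1 (Nr4a2) higher with APAP, where 44.1% of all genes tested did not overlap, 24% higher and 20.1% lower. The members' total was close to that of all genes, and their split was 14 lower to 1 higher. With library size alone in place of TMM it was 3 lower to 6 higher, where the median log2 fold change of all genes rose from 0.03 to 0.42. The share of all genes not overlapping was not counted at that scaling.

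The median log2 fold change of the 33 members was −0.38, beside 0.03 for all genes tested. Scaling bears on this sign. With library size alone in place of TMM, the median of all genes moved to 0.42 and that of the members to 0.01, and 18 members then had a fitted change above 0 and 15 below, in place of 6 and 27. Relative to the median of all genes the members lay 0.41 lower with TMM and 0.40 lower with library size alone. Changes were small for most: 26 of the 33 members (78.8%) had a fitted fold under 1.5, against 60.8% of all genes tested. The intervals do not bound all of them so closely. For 12 members the 95% interval of the difference lay within a doubling or halving, and for 21 it did not.

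**Figure D2:**
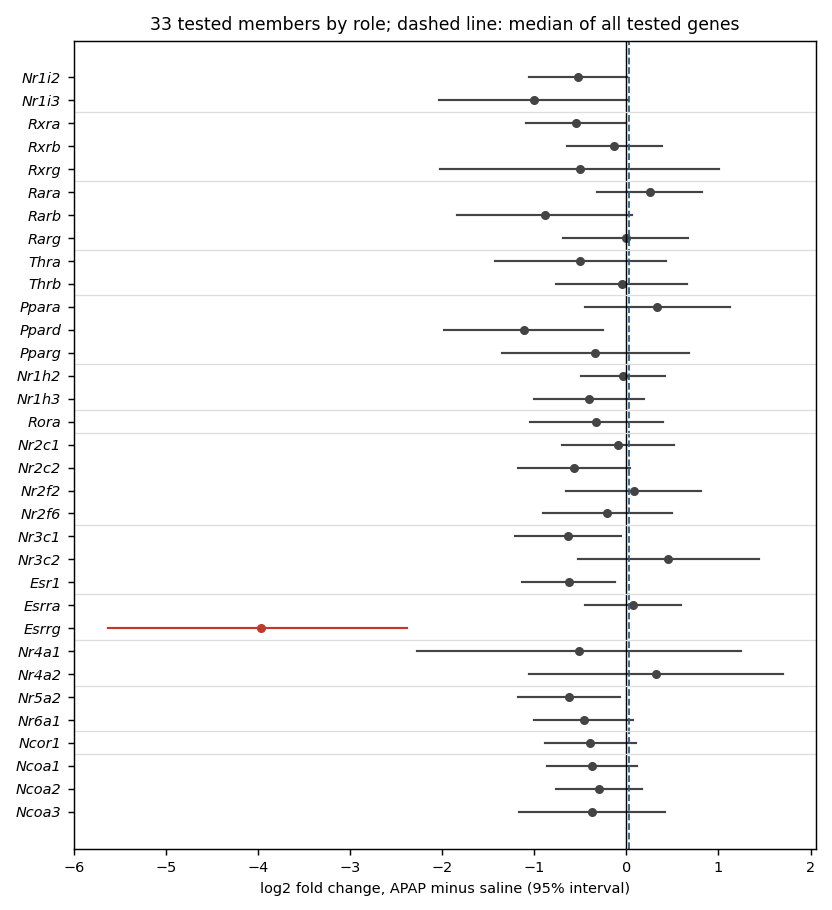
Difference of each of the 33 tested members on the log2 scale, APAP minus saline, with its 95% interval (bars), grouped by role between the thin grey lines. Esrrg (red) is the only member called, the dashed line marks the median of all genes tested at 0.03, and 27 of the 33 points lie below 0.

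The 2 xenobiotic receptors sense drugs and switch on cytochrome P450 genes. Nr1i2 (chr16:38248323-38294824, minus strand), which encodes PXR, measured 63.4 and 64.3 CPM with APAP and 76.3, 92.4 and 107 CPM with saline. Both APAP livers lay below all 3 saline livers. The log2 fold change was −0.52 ± 0.23 (SE, n = 2 and 3; 95% interval −1.06 to 0.01), with an adjusted p of 0.208 in edgeR's quasi-likelihood test. A decrease of Nr1i2 was therefore not shown, and neither was an absence of change, since the interval reaches from just above 0 to a halving.

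Nr1i3 (chr1:171213970-171220701, plus strand) encodes CAR. It measured 284 and 195 CPM with APAP and 254, 611 and 580 CPM with saline. WT1 fell among the APAP livers and the groups overlapped. The difference was −1.01 ± 0.43 on the log2 scale (95% interval −2.03 to 0.01), with an adjusted p of 0.206. Of its annotated exonic bases, 74.9% are shared with Tomm40l on the opposite strand, and the strand setting of the counting is not given in the sources used here. Tomm40l measured 6.87 and 10.2 CPM with APAP against 5.02, 4.78 and 3.94 CPM.

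Among the RXRs, the common heterodimer partners, Rxra was by far the most abundant. Rxra measured 275 and 305 CPM with APAP and 411, 415 and 446 CPM with saline. All 3 saline livers were above both APAP livers, and the saline livers lay close together. The log2 fold change of −0.55 ± 0.23 (95% interval −1.09 to −0.01) had an adjusted p of 0.197, although DESeq2 called it at an adjusted p of 0.0208. Rxrb and Rxrg differed by −0.13 and −0.50 on the log2 scale, with overlapping groups and adjusted p of 0.761 and 0.674.

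The retinoic acid receptors had fitted values on both sides of 0, none of them called. Rara measured 18.3 and 17.1 CPM with APAP and 14.3, 18.1 and 12.1 CPM with saline. The groups overlapped, and the log2 fold change was 0.25 ± 0.24 with an adjusted p of 0.566. Rarb, which is also a classical target of retinoic acid, was scarce, at 2.88 and 2.23 CPM with APAP and 6.18, 4.72 and 3.34 CPM with saline. Its groups did not overlap. The difference of −0.89 ± 0.40 (95% interval −1.84 to 0.06) did not pass the test (adjusted p = 0.226). In GENCODE M21, 34.1% of its exonic bases are shared with Top2b on the opposite strand, but the loci deposited for these genes do not overlap. Top2b measured 39.4 and 47.5 CPM with APAP against 61.0, 59.7 and 55.5 CPM. Rarg stood at −0.01 ± 0.29.

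For thyroid hormone, Thrb encodes the main receptor isoform of the liver. It measured 37.1 and 28.6 CPM with APAP and 26.7, 46.8 and 28.5 CPM with saline, with mixed groups. Its log2 fold change was −0.05 ± 0.30 (adjusted p = 0.940), and its sign turned with library size alone (0.33). Thra, the other receptor, differed by −0.50 ± 0.39.

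The 3 fatty acid receptors of the PPAR family had fitted values on both sides of 0. Ppara, the driver of fatty acid oxidation in fasting, measured 101 and 88.9 CPM with APAP and 48.2, 71.3 and 105 CPM with saline. The saline livers spanned the APAP livers (log2 fold change 0.34 ± 0.33, adjusted p = 0.583). Ppard, a broadly expressed relative, measured 5.76 and 6.49 CPM with APAP and 15.6, 16.2 and 8.02 CPM with saline. Every saline liver was higher than both APAP livers, with WT3 nearest to them. At −1.11 ± 0.36 (95% interval −1.98 to −0.25) Ppard had the largest fitted decrease after Esrrg. Its adjusted p was 0.118 in the quasi-likelihood test, 0.0437 in DESeq2 and 0.0349 without WT3. Only these 2 of 13 alternatives were under 0.05. In the quasi-likelihood test it was 0.215 without WT1, 0.305 without WT2 and 0.238 with library size alone. Pparg, the adipogenic member, lay at −0.34 ± 0.43.

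Nr1h3 encodes LXR alpha, an oxysterol sensor. It measured 65.5 and 65.0 CPM with APAP and 109, 79.8 and 69.6 CPM with saline. The APAP livers were lower without overlap, but by little from WT3, and the log2 fold change of −0.40 ± 0.25 (adjusted p = 0.380) became 0.01 with library size alone. The second oxysterol receptor, Nr1h2 (LXR beta), had one of the narrowest intervals of the family, −0.03 ± 0.19 (95% interval −0.49 to 0.42).

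Rora, a receptor of the clock circuitry, measured 66.7 and 118 CPM with APAP and 103, 106 and 138 CPM with saline. The APAP livers differed from each other more than the groups did (log2 fold change −0.32 ± 0.30, adjusted p = 0.560). Without APAP1 or with library size alone its sign turned, to 0.033 and 0.031.

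Of the testicular receptors and COUP-TFs, orphan receptors that compete for shared DNA elements, Nr2f6 was the highest per length. It measured 38.6 and 51.4 CPM with APAP and 65.4, 54.5 and 36.1 CPM with saline. The groups overlapped (−0.21 ± 0.30, adjusted p = 0.711), the sign turned with library size alone (0.19), and 54.4% of its exonic bases are shared with Ocel1 on the opposite strand, whose level was 5.35 and 6.61 CPM against 5.92, 6.78 and 4.74 CPM. Nr2c2 lay lower without overlap at −0.57 ± 0.26 (adjusted p = 0.227), and shares 30.7% of its exonic bases with Mrps25. Nr2c1 and Nr2f2 differed by −0.09 and 0.08.

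**Figure D3:**
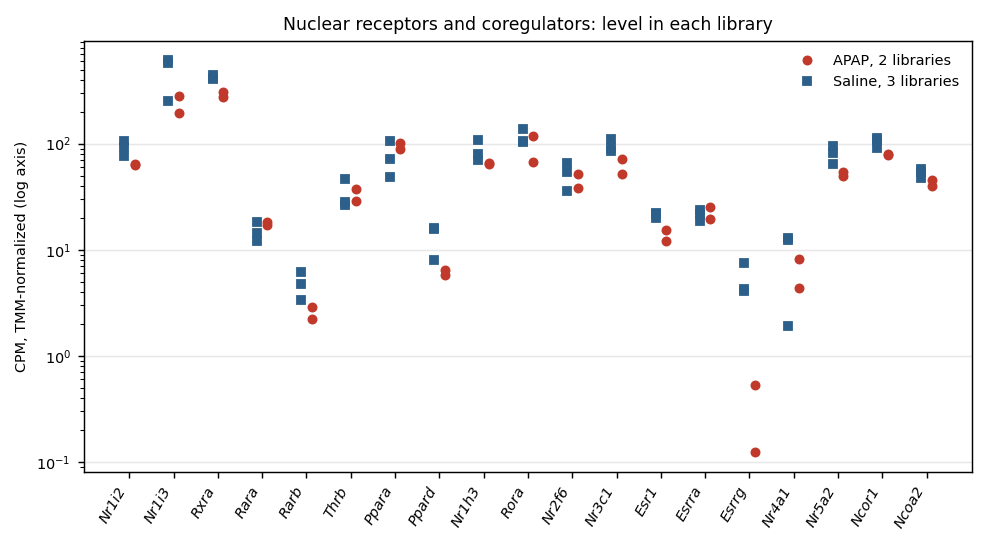
CPM of the 19 members described with a value in every library, on a log axis (blue squares the 3 saline livers, red circles the 2 APAP livers). Esrrg is at 0.529 and 0.124 CPM with APAP against 4.05 to 7.48 CPM with saline, while Rara, Thrb, Ppara and Esrra overlap between the groups.

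The steroid receptors Nr3c1 and Esr1 were lower in both APAP livers than in any saline liver. Nr3c1, the glucocorticoid receptor, measured 52.4 and 71.1 CPM with APAP and 111, 91.9 and 84.8 CPM with saline. No APAP liver reached the lowest saline liver. The difference was −0.63 ± 0.24 (95% interval −1.21 to −0.06), with an adjusted p of 0.165. Esr1, the estrogen receptor alpha, measured 12.0 and 15.5 CPM with APAP and 21.5, 20.1 and 22.2 CPM with saline. The saline livers were tightly grouped above the APAP livers, and the log2 fold change of −0.63 ± 0.21 (95% interval −1.13 to −0.13) had an adjusted p of 0.127. Nr3c2, the mineralocorticoid receptor, differed by 0.45 ± 0.41, the highest fitted value of the family, with overlapping groups.

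The estrogen-related receptors are orphan receptors that drive mitochondrial and oxidative genes. Esrrg (chr1:187608791-188214885, plus strand), of which 1 promoter window is given above, had 9 and 2 counts with APAP and 48, 61 and 112 counts with saline. In CPM this was 0.529 and 0.124 against 4.30, 4.05 and 7.48. The APAP livers were far below the saline livers, and APAP3 was under the floor of 3 counts. The mean with APAP was 6.18% of the saline mean, and the log2 fold change was −3.97 ± 0.69 (95% interval −5.63 to −2.38; adjusted p = 0.0220 in edgeR's quasi-likelihood test).

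The direction of Esrrg held in each of the 12 alternatives that tested it. Its log2 fold changes lay between −5.32 (without APAP1, on the 2 counts of APAP3) and −3.31. Its call did not hold in all alternatives. Without APAP3, WT1 or WT2 the adjusted p was 0.0656, 0.0502 and 0.0791, and with at least 10 counts demanded in every library Esrrg was not tested. By contrast Esrra, its abundant relative, measured 25.4 and 19.3 CPM with APAP and 21.8, 18.6 and 23.4 CPM with saline. The groups overlapped, with a log2 fold change of 0.07 ± 0.22 (95% interval −0.45 to 0.60; adjusted p = 0.877), and the sign of this small value turned without APAP1 or WT2.

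**Figure D4:**
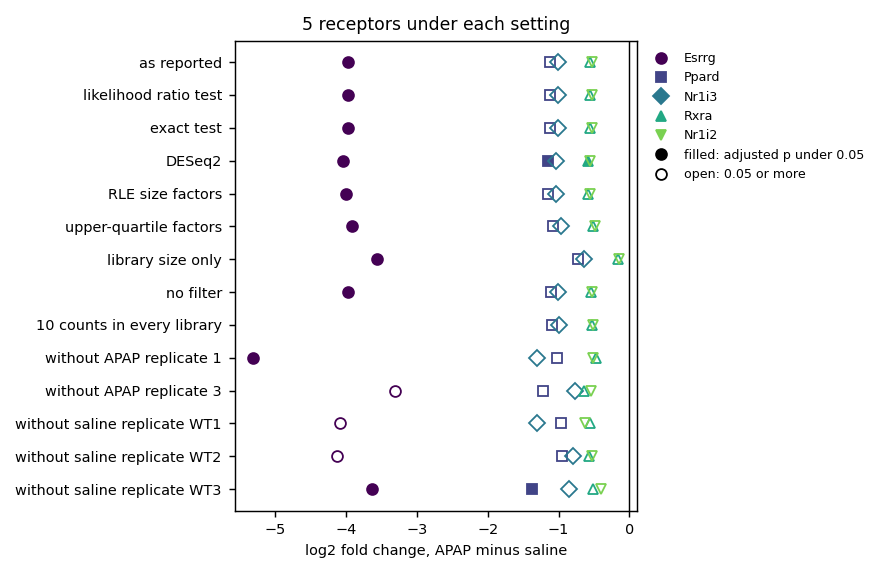
Log2 fold change (APAP minus saline) of 5 receptors under each setting, from the fit as reported at the top to the fits with 1 library left out at the bottom. Filled symbols have an adjusted p under 0.05: Esrrg stays between −5.32 and −3.31 and is open without APAP3, WT1 or WT2, and Nr1i2 and Nr1i3 are open throughout.

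The NR4A receptors are immediate early genes without a classical ligand, and Nr4a1 was uneven among the saline livers. Nr4a1 measured 4.35 and 8.22 CPM with APAP and 12.9, 1.93 and 12.2 CPM with saline. WT2 lay below both APAP livers and the other saline livers above them (−0.52 ± 0.74, adjusted p = 0.715). The coefficient of variation of Nr4a1 over the saline livers, 68.2%, was the highest among the tested members. Nr4a2 was higher with APAP without overlap, at 0.742 to 0.823 CPM against 0.538 to 0.731 CPM. It had only 14 and 12 counts against 6, 11 and 9, and the difference (0.32 ± 0.58) was smaller than its SE.

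Nr5a2 encodes LRH-1, a regulator of bile acid synthesis. It measured 49.9 and 54.2 CPM with APAP and 94.3, 82.2 and 64.7 CPM with saline. Both APAP livers were below every saline liver. The log2 fold change of −0.63 ± 0.23 (95% interval −1.18 to −0.07) had an adjusted p of 0.158. Nr6a1, an orphan receptor, was also lower without overlap, at −0.46 ± 0.23.

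The 4 coregulators had fitted values close to each other, from −0.39 to −0.30 on the log2 scale. Ncor1, the corepressor that bridges receptors to histone deacetylase 3, measured 80.5 and 77.6 CPM with APAP and 113, 90.3 and 107 CPM with saline. The APAP livers were lower without overlap (−0.39 ± 0.21, adjusted p = 0.309). Ncoa2, the most abundant p160 coactivator per length, measured 40.2 and 45.9 CPM with APAP and 47.7, 57.4 and 53.7 CPM with saline. Its groups were also apart, by a small gap (−0.30 ± 0.20, adjusted p = 0.407). Ncoa1 and Ncoa3 differed by −0.38 and −0.37, and the groups of Ncoa3 overlapped. With library size alone Ncor1 and Ncoa2 moved to 0.02 and 0.08, so that no direction is given for the coregulators.

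Genes of the same pathways were read from lists of other coregulators, ligand enzymes and target genes. Of 23 other coregulators, all tested, 1 was called: Pnrc1, a small receptor-binding coactivator, at −1.62 (adjusted p = 0.0480).

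Enzymes and carriers that supply or remove ligands held 4 calls among 18 tested genes. Dhrs3, which reduces retinaldehyde, fell by 2.43 on the log2 scale and Cyp26a1, which clears retinoic acid, by 3.13. Dio1, which converts thyroid hormone, had a log2 fold change of −2.87. Ch25h, which makes the oxysterol 25-hydroxycholesterol, rose to 0.940 and 3.03 CPM from 0, 0.0664 and 0.134 CPM, levels under the floor of 3 counts, so no fold is given.

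Targets of PXR and CAR had a median of −1.27 over 18 tested genes, with 6 genes called lower and 1 higher. Cyp2b10, the classical CAR target, fell by 2.70 on the log2 scale (12.4 and 10.4 CPM against 78.2, 68.9 and 75.8 CPM, adjusted p = 0.00224), while Cyp2c29 fell by 3.68 and Cyp3a25 by 2.11. Gadd45b, a stress-responsive partner of CAR, rose by 1.73. The hepatocyte markers Glul and Cyp2e1, both of pericentral hepatocytes, were called lower in the same livers, by log2 fold changes of −3.74 (adjusted p = 0.00376) and −2.34 (adjusted p = 0.0418), and their part in the values of these targets was not tested. Targets of PPAR alpha lay on the other side, with a median of 0.36 over 16 genes, 2 of them called higher: Plin2, a lipid droplet coat protein (2.49), and Ehhadh, a peroxisomal oxidation enzyme (1.68).

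Of 10 LXR targets, Nr1h3 itself included, Abcg1, a cholesterol exporter, rose by 1.62 and Scd1, a desaturase, fell by 4.33 (median −0.24). Of 12 glucocorticoid receptor targets 0 were called by the quasi-likelihood test (median −0.22). DESeq2 called 3 of them lower and 0 higher, where it called 1155 of all 13734 genes lower and 938 higher. At an unadjusted P under 0.05 in edgeR 3 were lower and 0 higher, where 1614 of all genes were lower and 1799 higher. Of 7 thyroid hormone receptor targets 3 were called lower: Me1, Dio1 and Thrsp (median −0.53). Of 8 retinoic acid receptor targets, Rarb included, 6 were tested and Dhrs3 and Cyp26a1, which also stand among the ligand enzymes, were called lower (median −1.24). Of 7 targets of ROR and REV-ERB, Cry1 was called, at −1.52, and the median was −0.82. Beside the background of 7.23%, 7 of 18 PXR and CAR targets and 3 of 7 thyroid hormone receptor targets were called. The calls were 2 of 6 tested retinoic acid receptor targets, 2 of 16 PPAR alpha targets and 2 of 10 LXR targets. They were 1 of 7 for ROR and REV-ERB and 0 of 12 for the glucocorticoid receptor. Of ligand genes 4 of 18 were called, of other coregulators 1 of 23, and of the members 1 of 33. Dhrs3, Cyp26a1 and Dio1 count both in the ligand list and in a target list. The differences between these shares were not tested. With 1 library left out the PXR and CAR targets called were 2 without APAP3, WT1 or WT2, 3 without APAP1 and 8 without WT3.

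**Figure D5:**
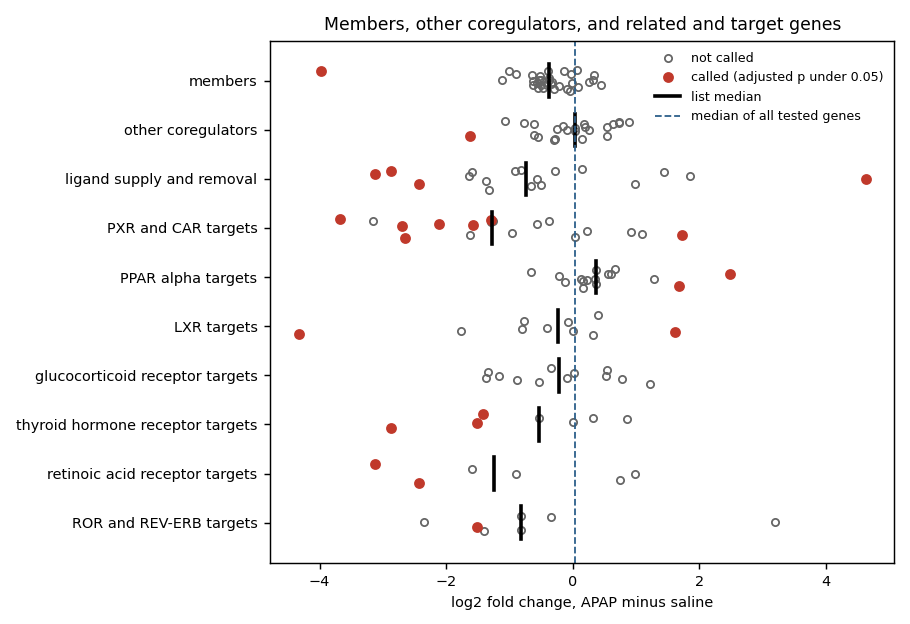
Log2 fold change (APAP minus saline) of each tested gene in the 33 members, in other coregulators, in genes of ligand supply and in 7 lists of target genes, with 1 circle per gene, filled where called. Black bars are list medians, among them −1.27 for PXR and CAR targets, −1.24 for retinoic acid receptor targets and 0.36 for PPAR alpha targets, beside 0.03 for all genes (dashed line). Vertical scatter within a list has no meaning.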

How the data were processed

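Liver RNA was sequenced from mice given APAP or saline. The authors extracted RNA with TRIzol, sequenced libraries on an Illumina NovaSeq platform, and deposited raw read counts per gene obtained with HISAT2, without normalization. The genome build is GRCm38 (mm10) per the labels. Strand setting, annotation and versions are not given in the sources used here. Their 5 columns of FPKM were not used.

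Columns were matched to samples by name. The 2 APAP columns carry replicate numbers, and the 3 WT columns carry none that the labels tie to a sample. The test was edgeR's quasi-likelihood test (edgeR 4.0.16 under R 4.3.3) after filterByExpr with a minimum count of 10 and a minimum total of 15 and TMM scaling (biological coefficient of variation 33.3%), adjusted by Benjamini-Hochberg over all genes and read at 0.05. The study names edgeR but not the test within it. The SE is the coefficient divided by the square root of the F statistic, and intervals use the moderated degrees of freedom. The fit was tested on simulated data. Libraries of a group were distinct, with a chi-square of 46.7 to 99.8 per degree of freedom. Gene coordinates are those deposited with the counts. Exonic lengths and overlaps are from GENCODE M21, matched by the deposited identifiers (34267 of 34745). Start, end and strand were identical in both for 27695 identifiers. Promoter windows are from RefSeq.

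Members, lists and the naming rule were chosen with earlier results of these data known. Described with a value in every library were called members, members not overlapping with a fitted fold of at least 1.5, Nr1i2, Nr1i3, and the member highest per length in each role. From each other list up to 4 called genes with the smallest adjusted p were named. A list of other receptors is not reported here. Alternatives were the likelihood ratio and exact tests, DESeq2 1.42.0, other scalings and filters, a threshold of 0.10, and each library left out in turn. The principal transcript length and the alternatives for PXR and CAR targets were chosen after seeing the data. Plots were drawn with matplotlib 3.10.9.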

Additional observations from a re-analysis of the deposited data

How the results depend on the processing

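No paired analysis was possible because the saline columns carry no number that the labels tie to a sample. The number of genes called, 993 as reported, was 1835 with the likelihood ratio test, 1776 with the exact test, 2093 with DESeq2, 1901 at an adjusted p under 0.10 and 165 to 922 with 1 library left out. With library size alone 77.8% of the called genes were higher with APAP, in place of 51.2%. Members called, 1 as reported, were 3 with DESeq2 (Rxra, Ppard and Esrrg), 0 with at least 10 counts in every library, where Esrrg is not tested, and 0 to 2 with 1 library left out: 0 without APAP3, WT1 or WT2, 1 without APAP1 and 2 (Ppard and Esrrg) without WT3. Members past the study's thresholds, 5 as reported, were 8 with DESeq2, 1 with library size alone and 2 to 7 with 1 library left out, the fewest without APAP1 (2) and WT2 (3). Members not overlapping were 9 with library size alone, where the share of all genes was not counted. PXR and CAR targets called, 7 as reported, were 2 to 8 with 1 library left out and 6 to 10 in the other settings.

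With library size alone the log2 fold change changed sign for Thrb (0.33), Nr1h3 (0.015), Rora (0.031), Nr2f6 (0.19), Ncor1 (0.016) and Ncoa2 (0.078), where the median of all genes rose to 0.42. With 1 library left out Thrb ranged from −0.25 to 0.25, Rora from −0.81 to 0.033 and Esrra from −0.13 to 0.24. None of these values was called, and the cause was not tested. The number of members at a mean of 1 RPKM or more was 31 in place of 30 with principal transcript lengths. With 2 APAP livers, and intervals reaching a median of 0.68 to either side on the log2 scale, smaller changes of most members were not detectable.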
